A study of Mus musculus with 4 samples.

Results

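The transcripts of 8 leukocyte adhesion genes were followed in mouse bone marrow neutrophils exposed to amyloid-beta 40 (Aβ40). They were chosen by gene symbol, as Itgam, Itgal, Itgax, Itgb2, Itga4, Itgb1, Selplg and Icam1, from the 54532 genes of the count table. The rule that picks them uses symbols and no measured value, though the symbols were chosen with earlier results of these data known. All 8 were expressed highly enough to be among the 13479 genes tested. The cells were wild type in both groups. In the Aβ40 group, 2 libraries came from cells given the peptide at 20 µg/ml for 4 h. Aβ40 is a cleavage product of the amyloid precursor protein. In the DMSO group, 2 libraries came from cells given that solvent. Strain, age, sex, the way neutrophils were purified and the length of the DMSO exposure were not stated in what was used here. Whether the libraries of a group stem from different mice or cultures is not said in the labels, so the spread behind each p-value may be technical. The series' description gives the mechanism by which Aβ40 induces neutrophil extracellular traps as the question of the experiment.

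Integrins are surface receptors made of 1 alpha and 1 beta chain. In neutrophils the beta2 chain, the product of Itgb2 (CD18), pairs with alpha M from Itgam to form Mac-1, with alpha L from Itgal to form LFA-1, and with alpha X from Itgax to form a further complement receptor. Rolling of neutrophils on a vessel wall rests on PSGL-1, the selectin ligand made from Selplg, and firm arrest rests on LFA-1 and Mac-1, which bind ICAM-1. The alpha 4 chain from Itga4 and the beta1 chain from Itgb1 together form VLA-4, a receptor for VCAM-1 and fibronectin that is best known on lymphocytes, monocytes and eosinophils. Much of the control of integrins acts on the shape and the surface transport of proteins already made, which transcript counts do not show.

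Libraries held between 17212264 and 19524125 counts. Summed markers of neutrophils, 14 genes such as Ly6g, S100a8 and Camp, all detected in every library, came to 149459.5 and 141910.0 CPM (counts scaled to library size by TMM) in the Aβ40 libraries, and to 144929.8 and 103854.8 CPM in the DMSO libraries, with DMSO 2 lowest. The cell type named in the labels was thus met by its markers. The 14 genes did not run together, and 2 lay higher and 4 lower in both Aβ40 libraries. Over all tested genes 23.2% lay higher and 21.9% lower. S100a9, the largest part of the sum, had 48045.7 and 45638.9 CPM in Aβ40 libraries, against 44610.5 and 27538.9 CPM in DMSO libraries. Csf3r had 455 and 412 CPM in Aβ40 libraries, against 567 and 755 CPM in DMSO libraries, with DMSO 2 highest. Markers of B cells were also present in every library and were higher with Aβ40, at 1310.1 and 1308.4 summed CPM over 14 genes, against 560 and 657 in the DMSO libraries. Over all genes the DMSO libraries differed more from each other than the Aβ40 libraries did (chi-square per degree of freedom 15.6 within Aβ40 and 51.4 within DMSO), and results that rest on 1 of them are given with and without it.

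Not one of the 8 adhesion genes passed the test for a change with Aβ40, using Benjamini-Hochberg adjustment over all tested genes and a threshold of 0.05 in edgeR's quasi-likelihood test, where 0.126% of all tested genes did. DESeq2, which called 1.18% of the genes it adjusted, and limma-voom, which called 0.185%, called 0 of the 8 as well. At an unadjusted p under 0.05 there was 1, Itgal, where 12.2% of tested genes passed. The libraries nevertheless fell into an order by gene. In 4 genes, Itgam, Itgal, Itgax and Selplg, both Aβ40 libraries lay below both DMSO libraries, which held for 21.9% of all tested genes. In 2 genes, Itga4 and Itgb1, both Aβ40 libraries lay above, which held for 23.2%. Itgb2 and Icam1 overlapped between groups. The median log2 fold change of the 8 genes was -0.05, beside 0.01 over all tested genes.

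**Figure D1:**
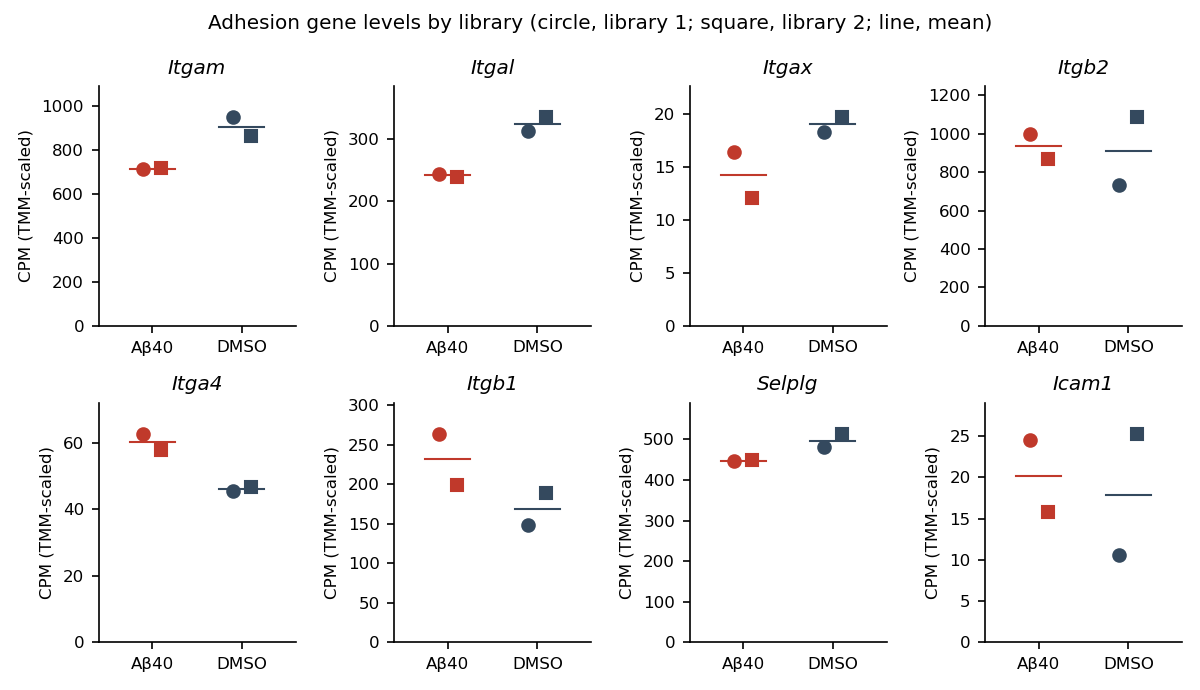
TMM-scaled CPM of each of the 8 adhesion genes (vertical axes, from 0, each with its own scale) in the Aβ40 and DMSO libraries; circles are library 1, squares are library 2 and lines are means of 2 libraries. The Aβ40 libraries lie below the DMSO libraries for Itgam, Itgal, Itgax and Selplg and above them for Itga4 and Itgb1, while Itgb2 and Icam1 overlap because DMSO 1 and DMSO 2 lie far apart.

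Set per gene length, in the FPKM deposited by the authors, the genes spanned a wide range of levels. Itgb2 was highest, with 322 and 282 FPKM in Aβ40 libraries and 238 and 354 FPKM in DMSO libraries, above 98.7% of tested genes. Itgam followed with a mean of 160 FPKM over the 4 libraries, Selplg with 110, Itgb1 with 48.5 and Itgal with 42.7. Icam1, Itga4 and Itgax formed a low group at means of 4.32, 3.76 and 3.43 FPKM, near the middle of all tested genes. Neighbours in this order were apart in all 4 libraries, except Itgb1 and Itgal, Icam1 and Itga4, and Itga4 and Itgax, whose ranges overlapped and whose order held in 2 of 4 libraries each. The level of Itgam is uncertain, because Gm49368, a gene model on the same strand at mm10 chromosome 7, 128062683 to 128128160, shares 68.7% of the exon bases of Itgam in GENCODE M21. How reads shared by both were counted is not given in the sources used here, and the same holds for strand. Gm49368 itself had 6 and 13 counts in Aβ40 libraries and 20 and 33 in DMSO libraries.

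Itgam, Itgal and Itgax, the abundant or well known alpha chain genes of the beta2 integrins, lay lower with Aβ40 in each library, without passing the adjusted test. Itgam (ENSMUSG00000030786, chromosome 7, 128062640 to 128118491) had 713 and 720 CPM in Aβ40 libraries, against 950 and 862 CPM in DMSO libraries. The Aβ40 libraries agreed closely and both lay under the lower DMSO library. The fitted fold was 0.791, with a 95% confidence interval from 0.594 to 1.05 (log2 fold change -0.34, SE 0.18, edgeR adjusted p = 0.486). Itgal (ENSMUSG00000030830, chromosome 7, 127296260 to 127335138) had 244 and 239 CPM in Aβ40 libraries, against 312 and 335 CPM in DMSO libraries. It had the smallest unadjusted p of the 8 genes, 0.0348 in edgeR's quasi-likelihood test. Its fold was 0.746, with an interval from 0.572 to 0.974 (log2 fold change -0.42, SE 0.17, edgeR adjusted p = 0.376), so the interval leaves out a fold of 1 before adjustment only. Itgax (ENSMUSG00000030789, chromosome 7, 128129547 to 128150657), a gene also used widely as a marker of dendritic cells, had 16.4 and 12.03 CPM in Aβ40 libraries, against 18.3 and 19.7 CPM in DMSO libraries. Its fold was 0.748, with an interval from 0.517 to 1.08 (edgeR adjusted p = 0.501). The log2 fold change of -0.42 became -0.66 without Aβ40 1 and -0.23 without Aβ40 2, neither called. Counts behind Itgax ran from 230 to 366 per library, a counting error of at most 6.59%, while those behind Itgam ran from 12186 to 17717. In bulk RNA, fewer cells of a type and less RNA per cell cannot be told apart.

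Itgam and Itgax are neighbours on chromosome 7, with 11.056 kb between them, and Itgal lies 727.502 kb before Itgam. RefSeq sequences from 250 bases before to 50 after the start were found for 5 of the 8 genes on build GRCm38.p6. Those of Itgam and Itgax are shown because these neighbouring alpha chain genes lay lower together, and those of Itga4 and Itgb1 because this pair lay higher. Capitals mark the letters GAGGAA, read on either strand, a core bound by ETS factors such as PU.1, the myeloid regulator. They occur in 28.3% of the 32851 promoter windows of the same length. Itgam, chr7:128062390-128062689, plus strand, held 3 matches. Itgax, chr7:128129300-128129599, plus strand, held 0. Itga4, chr2:79255176-79255475, plus strand, held 0 as well, and Itgb1, chr8:128685404-128685703, plus strand, held 1. A match is a run of letters, not a measured binding site, and any link between matches and the values was not tested.
Itgam: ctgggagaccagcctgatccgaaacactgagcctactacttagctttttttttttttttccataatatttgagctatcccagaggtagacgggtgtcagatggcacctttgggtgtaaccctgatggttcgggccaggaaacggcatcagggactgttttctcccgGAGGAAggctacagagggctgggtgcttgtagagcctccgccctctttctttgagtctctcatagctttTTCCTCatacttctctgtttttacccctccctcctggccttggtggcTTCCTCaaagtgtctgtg
Itgax: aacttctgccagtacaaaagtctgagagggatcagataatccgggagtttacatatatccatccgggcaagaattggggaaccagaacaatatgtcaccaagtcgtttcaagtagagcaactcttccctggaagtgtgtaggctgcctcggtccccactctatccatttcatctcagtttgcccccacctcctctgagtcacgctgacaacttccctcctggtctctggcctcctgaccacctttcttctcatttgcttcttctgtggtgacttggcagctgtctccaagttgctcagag
Itga4: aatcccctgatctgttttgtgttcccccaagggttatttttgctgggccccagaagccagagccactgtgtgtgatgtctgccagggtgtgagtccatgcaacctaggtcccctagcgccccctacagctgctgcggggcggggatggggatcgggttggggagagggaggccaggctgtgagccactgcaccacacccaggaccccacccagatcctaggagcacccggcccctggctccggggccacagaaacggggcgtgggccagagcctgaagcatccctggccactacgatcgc
Itgb1: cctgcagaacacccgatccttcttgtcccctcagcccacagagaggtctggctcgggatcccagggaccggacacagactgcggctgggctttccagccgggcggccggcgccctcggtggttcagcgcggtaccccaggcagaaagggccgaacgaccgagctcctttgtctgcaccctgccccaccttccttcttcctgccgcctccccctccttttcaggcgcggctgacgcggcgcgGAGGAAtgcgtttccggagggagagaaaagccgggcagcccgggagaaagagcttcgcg

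Itgb2, the shared beta chain, overlapped between groups, where Itgam, Itgal and Itgax did not. It (ENSMUSG00000000290, chromosome 10, 77530252 to 77565708) had 1000.1 and 871 CPM in Aβ40 libraries, against 731 and 1085.7 CPM in DMSO libraries. The DMSO libraries enclosed the Aβ40 libraries and differed from each other by 1.48 times, a gap that 24.1% of tested genes reached. The fold was 1.03, with an interval from 0.717 to 1.48 (edgeR adjusted p = 0.955). That interval holds before adjustment and is not a limit of detection. It takes in the folds of Itgam, Itgal and Itgax, so Itgb2 was not shown to differ from them. Its direction depended on the DMSO library kept, with a log2 fold change of -0.22 without DMSO 1 and 0.34 without DMSO 2, neither called.

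Shares within a library do not depend on how libraries are scaled. Of the summed FPKM of Itgam, Itgal and Itgax, Itgam made up 77.8% and 78.7% in Aβ40 libraries and 78.6% and 75.7% in DMSO libraries, a mean of 78.2% ± 0.629 and of 77.2% ± 2.08 (SD, n = 2 each). Itgal made up 20.4% and 20.0% in Aβ40 libraries and 19.8% and 22.5% in DMSO libraries, and Itgax at most 1.88% in any library. The makeup of the alpha chains thus overlapped between groups, although each of these 3 chains lay lower with Aβ40. The ratio of the summed alpha chains to Itgb2 was 0.557 and 0.639 in Aβ40 libraries, against 1.00 and 0.637 in DMSO libraries. DMSO 1 stood apart in this ratio and the other DMSO library lay beside the Aβ40 libraries (exact permutation test, 2-sided, p = 0.667, where 0.333 is the smallest p that 2 against 2 allows). These shares carry the uncertainty in the level of Itgam.

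**Figure D2:**
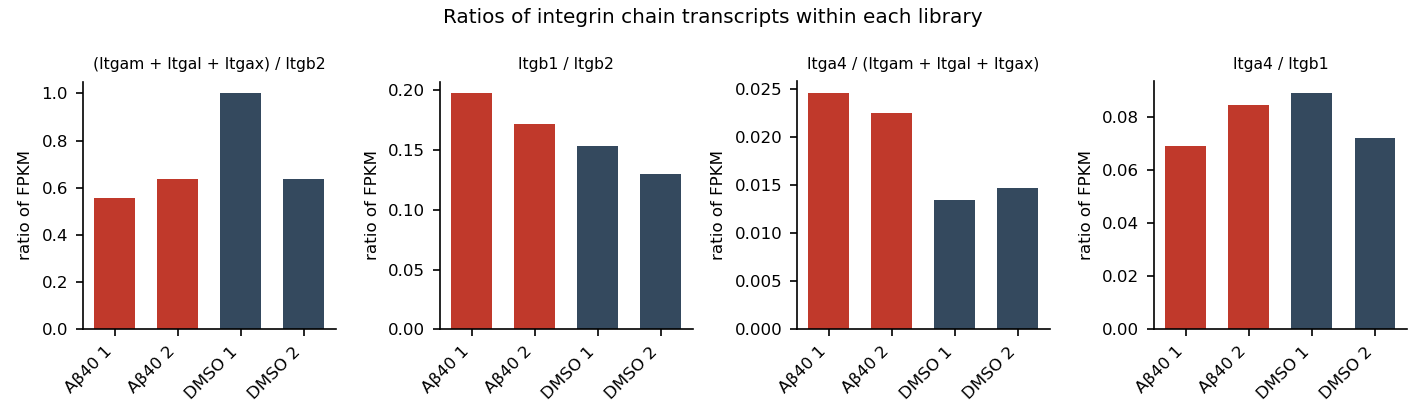
Ratios of FPKM between integrin chain genes within each library (vertical axes from 0, bars are single libraries, Aβ40 in red and DMSO in dark). The summed alpha chains over Itgb2 reach 1.00 in DMSO 1 against 0.557 to 0.639 elsewhere, and Itga4 over the summed alpha chains is 0.0246 and 0.0226 with Aβ40 against 0.0135 and 0.0147 with DMSO.

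Both chains of VLA-4 lay higher with Aβ40. Itga4 (ENSMUSG00000027009, chromosome 2, 79255426 to 79333123) had 62.6 and 57.7 CPM in Aβ40 libraries, against 45.5 and 46.6 CPM in DMSO libraries. The groups were apart by more than the spread in either. The fold was 1.31, with an interval from 0.999 to 1.71 (log2 fold change 0.39, SE 0.17, edgeR adjusted p = 0.410). Itgb1 (ENSMUSG00000025809, chromosome 8, 128685654 to 128733200), whose product also pairs with many other alpha chains, had 264 and 199 CPM in Aβ40 libraries, against 149 and 188 CPM in DMSO libraries. The lower Aβ40 library lay just above the higher DMSO library, and the groups overlapped when libraries were scaled by total counts alone. The fold was 1.37, with an interval from 0.990 to 1.90 (log2 fold change 0.46, SE 0.21, edgeR adjusted p = 0.420). Without DMSO 2 the test called Itgb1 higher, at a log2 fold change of 0.62 (edgeR adjusted p = 0.0192), in a fit that called 7.16% of its genes and in which the lone DMSO library is assumed to vary like the Aβ40 libraries. Without DMSO 1 it was 0.29 (edgeR adjusted p = 0.351) and without Aβ40 1 it was 0.235 (edgeR adjusted p = 0.997), neither called.

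Ratios that use these genes were computed after their values had been seen. Itga4 relative to the summed beta2 alpha chains was 0.0246 and 0.0226 in Aβ40 libraries, against 0.0135 and 0.0147 in DMSO libraries, in FPKM. Itgb1 relative to Itgb2 was 0.197 and 0.171 in Aβ40 libraries, against 0.153 and 0.130 in DMSO libraries. Groups were apart in both ratios, which are given without a test because they were chosen for their values. Itga4 relative to Itgb1 was 0.0693 and 0.0847 in Aβ40 libraries, against 0.0891 and 0.0722 in DMSO libraries, which overlapped.

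Several marker lists of other marrow cells lay higher in the same libraries as Itga4 and Itgb1, beside the 23.2% of all tested genes that lay higher in both Aβ40 libraries. The marker lists were chosen with earlier results of these data known. Of the 14 B cell markers, all lay higher in both Aβ40 libraries, with none at 0 in any library. By edgeR's quasi-likelihood test 7 of them were called higher, where 0.126% of all tested genes were called in either direction. Summed eosinophil markers came to 3640.7 and 3709.0 CPM in Aβ40 libraries, against 1674.7 and 1388.0 CPM in DMSO libraries, with 9 of 9 genes higher, 1 of them called and none at 0. T and NK cell markers came to 118 and 124 summed CPM in Aβ40 libraries, against 76.1 and 75.8 CPM in DMSO libraries, with 10 of 12 tested genes higher, 1 called, and Ncr1 at 0 in a library. Monocyte and macrophage markers came to 3694.8 and 3154.9 summed CPM in Aβ40 libraries, against 2778.4 and 2696.1 CPM in DMSO libraries, with 6 of 11 genes higher and 2 lower in both Aβ40 libraries, 0 called and none at 0. Most of the difference in that sum was Ly6c2, with 2615 and 2233 CPM in Aβ40 libraries, against 1871 and 1718 CPM in DMSO libraries. Dendritic cell markers came to 701 and 757 summed CPM in Aβ40 libraries, against 478 and 457 CPM in DMSO libraries, with 6 of 9 genes higher, 0 called and none at 0. Megakaryocyte and platelet markers were not higher, at 29.2 and 30.9 summed CPM in Aβ40 libraries, against 35.5 and 31.2 CPM in DMSO libraries, with 0 of 5 tested genes higher, 1 lower, 0 called, and Treml1 at 0 in a library. The part of these cells in the values of Itga4 and Itgb1 was not tested. Itgax, a gene of dendritic cells and macrophages too, lay lower with Aβ40 while those marker sums lay higher. These sums do not stand for every marker. In the dendritic cell list, most of the difference in the sum lay in the MHC class II genes H2-Aa, H2-Eb1 and H2-Ab1. H2-Aa had 223 and 187 CPM in Aβ40 libraries, against 62.6 and 93.9 CPM in DMSO libraries. H2-Eb1 had 135 and 162 CPM in Aβ40 libraries, against 90.4 and 90.3 CPM in DMSO libraries. Zbtb46 of the same list had 1.52 and 1.26 CPM in Aβ40 libraries, against 2.2 and 1.34 CPM in DMSO libraries, which overlapped. Xcr1 and Bst2 overlapped between groups as well. Csf1r and Cx3cr1 were the 2 monocyte and macrophage markers that lay lower. The part of these cells in the values of Itgax was not tested.

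**Figure D3:**
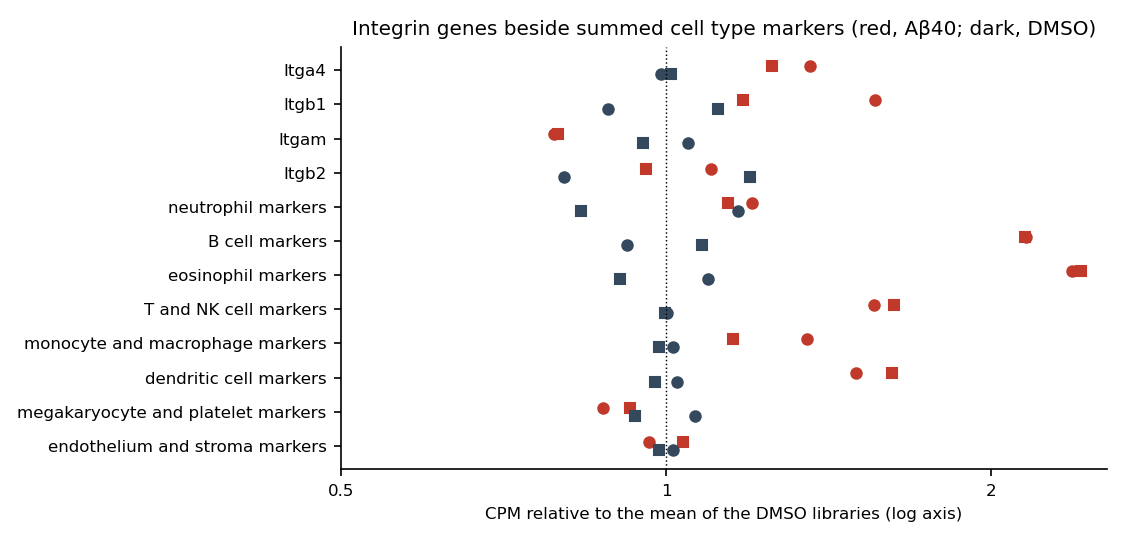
CPM of 4 integrin genes and summed CPM of 8 marker lists, each divided by the mean of its DMSO libraries (horizontal log axis); red points are Aβ40 libraries, dark points are DMSO libraries, circles are library 1 and squares are library 2. B cell and eosinophil markers lie at more than 2 times the DMSO mean in both Aβ40 libraries, Itga4 and Itgb1 lie above 1, and Itgam lies below 1.

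Selplg, whose product PSGL-1 carries the glycans that selectins grip, had the closest Aβ40 libraries of the 8 genes. It (ENSMUSG00000048163, chromosome 5, 113818536 to 113832644) had 447 and 448 CPM in Aβ40 libraries, against 480 and 514 CPM in DMSO libraries. The groups did not overlap, but the gap was small. The fold was 0.901, with an interval from 0.685 to 1.19 (log2 fold change -0.15, SE 0.17, edgeR adjusted p = 0.760).

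Icam1, the counter-receptor of LFA-1 and Mac-1, which inflammatory signals through NF-kB induce in many cells, was the most variable of the 8 genes. It (ENSMUSG00000037405, chromosome 9, 21015985 to 21028817) had 24.5 and 15.8 CPM in Aβ40 libraries, against 10.6 and 25.3 CPM in DMSO libraries. The DMSO libraries held the lowest and the highest value, 2.33 times apart, a gap that 3.47% of tested genes reached. With 197 to 470 counts per library the counting error was at most 7.12%, so the gap was wider than counting gives. The fold was 1.12, with an interval from 0.612 to 2.06 (edgeR adjusted p = 0.891). Without DMSO 2 the log2 fold change was 0.92 and was called (edgeR adjusted p = 0.0162, in the fit that called 7.16% of its genes), and without DMSO 1 it was -0.33 and was not (edgeR adjusted p = 0.431, in a fit that called 8.93% of its genes). A stretch of the Icam1 promoter at chr9:21015777-21015805 (GRCm38.p6, plus strand, from RefSeq) is shown because NF-kB is the best known route to this gene. Capitals mark GGAAATTCC, letters of the NF-kB type that 0.317% of promoter windows hold on either strand.
Icam1: acttcagtttGGAAATTCCtagatcgcag

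**Figure D4:**
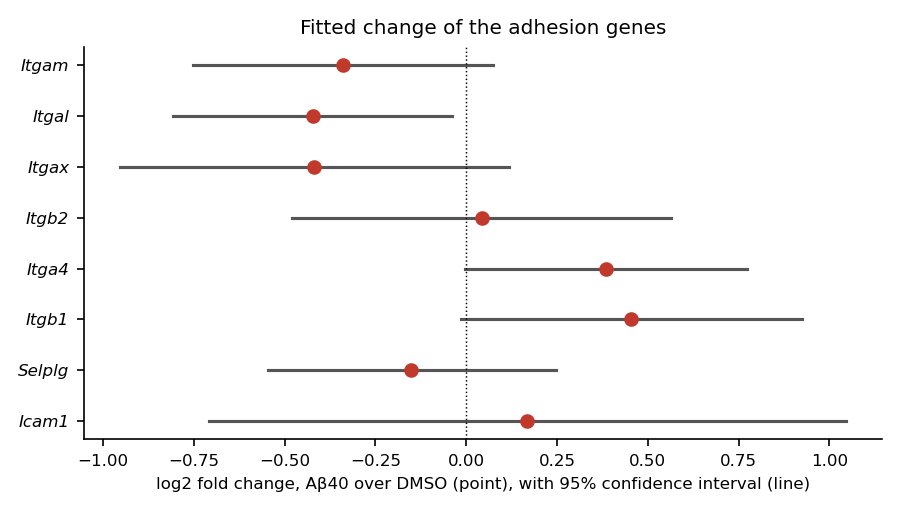
Fitted log2 fold change of each adhesion gene, Aβ40 over DMSO (points), with its 95% confidence interval before adjustment (lines), from edgeR's quasi-likelihood fit over 13479 genes. The intervals of all but Itgal cross 0, and that of Icam1 is the widest.

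Genes whose levels ran most like those of Itgb2 and Itga4 were sought among 8880 protein-coding genes that averaged 5 CPM or more, by the root mean square difference of centred log2 CPM over the 4 libraries. For Itgb2 the nearest were Atf6, a sensor of stress in the endoplasmic reticulum, at 0.006, Oasl1 at 0.010 and Diaph3, an actin nucleator, at 0.018. Atf6 had 44.6 and 39.2 CPM in Aβ40 libraries and 32.6 and 48.8 CPM in DMSO libraries. It was lowest in DMSO 1 and highest in DMSO 2 as Itgb2 was, an order that its choice fixes. For Itga4 the nearest were Crls1, the cardiolipin synthase, at 0.010, Aifm1 at 0.017 and Eif2ak1, the heme-regulated kinase of translation, at 0.018. With 8880 genes compared over 4 libraries, close matches can arise without shared control, which was not tested.

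Beyond these 8, 95 genes of the adhesion machinery in 5 lists were read from the same fit. Of 78 tested, 0 were called in either direction by edgeR's quasi-likelihood test, by DESeq2 or by limma-voom, 11 had an unadjusted p under 0.05 (12.2% of all tested genes did), and the median log2 fold change was -0.08. Both Aβ40 libraries lay below both DMSO libraries for 26 of the 78 and above them for 10, beside 21.9% and 23.2% of all tested genes.

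Among the other integrin chains, 13 of 20 were tested and 0 were called, with a median log2 fold change of -0.03. Itga5, which pairs with beta1 as the classical fibronectin receptor, stood out with 35.5 and 38.0 CPM in Aβ40 libraries, against 55.5 and 72.8 CPM in DMSO libraries. Its log2 fold change was -0.80 (SE 0.20, edgeR unadjusted p = 0.00276, adjusted p = 0.244), opposite in sign to Itga4 and Itgb1. Itgb7, the partner of alpha 4 in gut homing, was at 0.12 (SE 0.19), and Itgav, an alpha chain of vitronectin receptors, was at -0.09 (SE 0.18). Itgad, a further alpha chain of beta2, ran against Itgam, Itgal and Itgax, with 23 and 20 counts in Aβ40 libraries, against 2 and 14 counts in DMSO libraries, at a log2 fold change of 1.46 (SE 0.89, edgeR adjusted p = 0.537). Itga2 was as scarce, with 19 and 32 counts in Aβ40 libraries, against 15 and 19 counts in DMSO libraries, at 0.61 (SE 0.61).

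Of the genes that switch integrins on and carry their signals, 32 of 34 were tested, 0 were called, and the log2 fold change of 22 was below 0, at a median of -0.08 (48.9% of all tested genes were below 0). The smallest unadjusted p-values belonged to Arap3, a GTPase regulator downstream of PI3K, to Fyb, the adaptor ADAP, and to Cytip, a binding partner of cytohesins. Arap3 had 92.1 and 110 CPM in Aβ40 libraries, against 158 and 148 CPM in DMSO libraries, a log2 fold change of -0.60 (SE 0.17, edgeR adjusted p = 0.294). Fyb had 166 and 183 CPM in Aβ40 libraries, against 266 and 240 CPM in DMSO libraries, at -0.53 (SE 0.17, edgeR adjusted p = 0.330). Cytip had 336 and 262 CPM in Aβ40 libraries, against 198 and 208 CPM in DMSO libraries, at 0.56 (SE 0.19, edgeR adjusted p = 0.334). The most abundant, the actin regulators Coro1a and Rac2, lay near 0, at 0.01 (SE 0.19) and 0.02 (SE 0.21).

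Counter-receptors and partners of adhesion had 17 of 23 genes tested, 0 called and a median of -0.18. Pecam1, an adhesion protein of endothelium, platelets and leukocytes, had 41.6 and 38.5 CPM in Aβ40 libraries, against 24.2 and 24.8 CPM in DMSO libraries, at a log2 fold change of 0.71 (SE 0.19, edgeR adjusted p = 0.263). Summed markers of endothelium and stroma came to 12.7 and 13.7 CPM in Aβ40 libraries, against 13.35 and 12.96 CPM in DMSO libraries. Of 7 such markers 5 were tested, with 1 higher and 2 lower in both Aβ40 libraries and 0 called. They were scarce, Cdh5 having 6 and 2 counts in Aβ40 libraries, against 2 and 2 counts in DMSO libraries. Of the other cell types, summed B cell markers were 1310.1 and 1308.4 CPM in Aβ40 libraries, against 560 and 657 CPM in DMSO libraries. Eosinophil, T and NK cell, monocyte and macrophage, and dendritic cell sums also lay higher, while megakaryocyte and platelet markers did not. The part of endothelium, platelets or leukocytes in the values of Pecam1 was not tested. The matrix genes Fn1 (fibronectin) and Thbs1 (thrombospondin) were at -0.44 (SE 0.17) and -0.45 (SE 0.17). Thbs1 had 427 and 412 CPM in Aβ40 libraries, against 575 and 574 CPM in DMSO libraries. The abundant surface glycoproteins Cd44, a hyaluronan receptor, and Cd24a were at -0.36 (SE 0.21) and 0.22 (SE 0.20).

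All 12 genes of selectin ligand glycosylation and sulfation were tested and 0 were called, with a median of -0.07. C1galt1, which builds the core O-glycan of PSGL-1, had 138 and 112 CPM in Aβ40 libraries, against 85.2 and 98.7 CPM in DMSO libraries, at 0.44 (SE 0.18). The galactosyltransferase gene B4galt1 was at -0.40 (SE 0.18) and the tyrosine sulfotransferase gene Tpst1 at 0.41 (SE 0.21), the lowest edgeR adjusted p of the list being 0.390. The list of sheddases, which cut adhesion proteins from the surface, also held regulators such as Rhbdf2. Of its 6 genes, 4 were tested and 0 were called. All 4 lay lower in both Aβ40 libraries, where 21.9% of all tested genes did, and the median log2 fold change was -0.32. Rhbdf2, a cofactor that carries ADAM17 to the surface, had 49.3 and 65.3 CPM in Aβ40 libraries, against 82.3 and 99.0 CPM in DMSO libraries, at -0.66 (SE 0.20, edgeR adjusted p = 0.322). Adam8 was at -0.44 (SE 0.18), Adam10 at -0.19 (SE 0.17) and Adam17 at -0.10 (SE 0.17). For Adam10 and Adam17 the groups were barely apart. Adam10 had 155 and 143 CPM in Aβ40 libraries, against 185 and 156 CPM in DMSO libraries. Adam17 had 226 and 211 CPM in Aβ40 libraries, against 242 and 228 CPM in DMSO libraries.

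**Figure D5:**
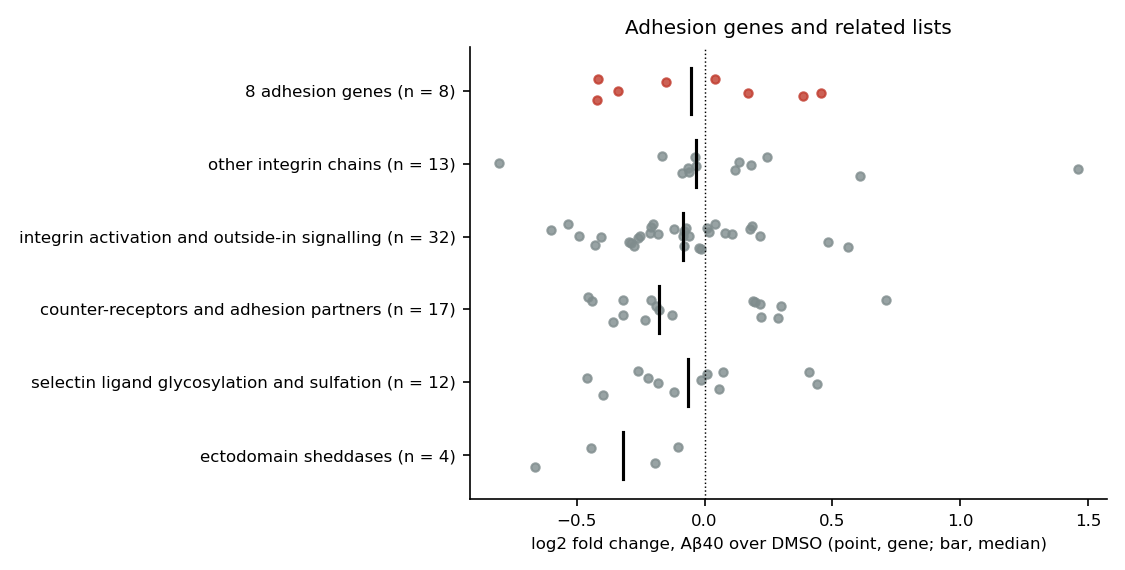
Log2 fold change, Aβ40 over DMSO, of each tested gene (points) of the 8 adhesion genes in red and of 5 related lists in grey, with the median of each as a bar. Medians lie between -0.32 for the 4 tested genes of the sheddase list and -0.03 for the 13 other integrin chains, and no point is a called gene.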

How the data were processed

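RNA sequencing gave 4 libraries of bone marrow neutrophils, 2 with Aβ40 and 2 with DMSO, grouped by the treatment in the labels. The authors deposited raw read counts per gene and FPKM. Per the submitters' processing notes, HISAT2 2.0.5, featureCounts 1.5.0-p3 and mm10 were used, without roles. The sources used here give neither strandedness nor the annotation release. The deposited FPKM equal counts over gene length and an effective library size of 0.960 to 1.09 times the total counts, as checked on the values.

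Counts were fitted in R 4.3.3 with edgeR 4.0.16 (filterByExpr, TMM, glmQLFit and glmQLFTest, intercept and group, 2-sided) over 13479 genes, with Benjamini-Hochberg adjustment and calls at an adjusted p under 0.05. The fit had 2 residual and 6.88 prior degrees of freedom. Standard errors were derived from the same fit, as the absolute log2 fold change over the square root of the F statistic. Intervals were built from them with a t quantile, so both are approximate. SDs are over 2 libraries. Library totals were 17212264 to 19524125, and 1 count was worth 0.0512 to 0.0581 CPM before scaling. Counting errors cover counting only. Libraries of a group differed beyond sampling noise (chi-square per degree of freedom 15.6 for Aβ40 and 51.4 for DMSO). Alternatives used other scalings and filters, DESeq2 1.42.0, limma 3.58.1, a replicate block and leaving out libraries.

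The members and lists were chosen with earlier results of these data known. Named genes are the 8 members and, per list, the 3 tested genes with the smallest p and the 2 most abundant, since none was called. For the sheddase list this covers all 4 tested. For Itgb2 and Itga4 the 3 most similar genes are named. Gm49368, Ly6c2, Itga1 and Itga6 were named after their values were seen. The same holds for other marker genes given singly, among them S100a9, Csf3r, H2-Aa, H2-Eb1, H2-Ab1, Zbtb46, Xcr1, Bst2, Csf1r, Cx3cr1 and Cdh5.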

Additional observations from a re-analysis of the deposited data

How the results depend on the processing

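Over 15 alternatives the 8 adhesion genes gave 120 log2 fold changes, of which 113 kept both their direction and their side of the threshold, 5 changed sign and 2 passed it. Itgam, Itgal, Itgax and Selplg stayed negative and Itga4 and Itgb1 positive in every alternative run. Itgb2 was -0.028 with scaling by library size only, -0.06 without Aβ40 1 and -0.22 without DMSO 1, with 0.34 as the other end of the range when a library was left out. Icam1 was -0.18 without Aβ40 1 and -0.33 without DMSO 1, with 0.92 at the other end. Leaving out each library gave 0 to 2 of the 8 genes called (Itgb1 and Icam1, without DMSO 2), 0 to 9 list genes and 0 to 1276 genes in all; such fits leave 1 library in a group, assumed to vary like the other group. All genes called were 17 in the fit reported, 255 without a filter on low counts, 138 with DESeq2 and 0 with limma on log2(FPKM + 1) or log2(FPKM + 0.1). The list genes called numbered 1 without the filter, Itga5. The causes were not tested. A replicate block gave 27 genes and changed no call among the 8 or the lists; the labels do not say that numbers pair libraries, and deviations of same-numbered libraries correlated at -0.226. With the numbers crossed, an alternative chosen after seeing the data, 721 genes, 0 of the 8 and 4 list genes were called. For the scarce genes, Icam1 and Itgax, depth adds up to 7.12% of counting error.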

Other observations

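Itga4 and Itga5, alpha chains that pair with beta1, lay on opposite sides of 0, a pair chosen after the values had been seen. Other partners of beta1 lay nearer to 0 or were scarce, with log2 fold changes of 0.13 (SE 0.22) for Itga1, -0.06 (SE 0.21) for Itga6, -0.09 (SE 0.18) for Itgav and 0.61 (SE 0.61) for Itga2. Itga4 relative to Itga5, in FPKM within a library, was 0.623 and 0.535 in Aβ40 libraries, against 0.289 and 0.226 in DMSO libraries. The groups did not overlap, which the choice of the pair fixes, so no test is given. This ratio does not depend on library scaling. Markers of B cells and eosinophils were higher in the same libraries, and their part in the ratio was not tested.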
